A study of Mus musculus with 2 samples.

Results

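The genes described here encode the proteins that form and dissolve blood clots, and 34 were chosen by name for these roles, by a rule that uses no measured value but was written with earlier results of these data known. They comprise the fibrinogen chains, the clotting factors, the anticoagulant proteins and the proteins of fibrinolysis. Of the 34, 33 had at least 1 probe set that carried their symbol alone (43 probe sets in all), among 18193 genes named on the array. Cpb2, which encodes the fibrinolysis inhibitor TAFI, was not analysed here, because no probe set was named for it.

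Liver RNA came from male 129SvEJ mice aged 8 weeks, which were either wild-type or pparalpha -/- (Ppara-null, without the nuclear receptor PPARα). Both genotypes ate chow with 0.2% fenofibrate, a lipid-lowering drug that activates PPARα, for 7 days. Each genotype is represented by 1 short oligonucleotide array, hybridised with a pool of RNA from 3 animals, so there are 2 arrays in all. No group without the drug was analysed here, so genotype differences that exist on plain chow and those that arise with the drug cannot be told apart. With 1 array per genotype there is no spread between replicates, no test and no p-value, and the number of arrays limits the precision.

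Clotting ends when thrombin cuts soluble fibrinogen into fibrin, which factor XIII then cross-links. Thrombin is made by a chain of proteases that circulate as inactive precursors, most of them secreted by hepatocytes, and several of them need a vitamin K-dependent carboxylation before they can bind membranes. Antithrombin, the protein C pathway and other inhibitors hold thrombin formation back, and plasmin dissolves the clot. A minority of the genes act mainly in the vessel wall or in blood cells, among them those for tissue factor, von Willebrand factor, thrombomodulin and the plasminogen activators.

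All values are signal intensities on a linear scale, as deposited, and levels of different genes are not compared. A floor was set at the median signal of each array (287.8 in wild type, 269.4 in null), and lower signals were set to it, after which wild type was divided by null and log2 taken. A gene with several probe sets is given by the one with the highest mean log2 signal, and a gene counted as measured when it reached the floor on at least 1 array. By this rule 29 of the 33 genes counted, 27 of them with both arrays at or above the floor, and 13041 genes counted in all. F13a1 and Plat counted through the null array alone, so their ratios depend on the wild-type floor and the filter favours a negative sign. The only scatter these arrays offer is that among probe sets of the same gene, whose log2 ratios had a pooled SD of 0.42 at all signals (10117 probe sets) and of 0.17 where both signals reached 5000 (1041 probe sets). Variation from mouse to mouse is not part of it.

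The Ppara transcript itself gave 7957 in wild type and 3414 in null at its brightest probe set, and was lower in null at all 3 of its probe sets. The 18 hybridization controls, bacterial and phage transcripts that are added to the sample before hybridization, were all lower on the wild-type array, with log2 ratios from -0.73 to -0.12 and a median of -0.38. The 7 hepatocyte markers with a named probe set, such as albumin (Alb, 192642 against 212369), were all above the floor and had a median log2 ratio of -0.22. Their summed signal was 1117408 in wild type and 1303542 in null.

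Most measured genes of coagulation and fibrinolysis gave lower signals in fenofibrate-fed wild-type liver than in null liver, by less than 2-fold on floored signals. Of the 29 measured genes 27 had a negative log2 ratio, against 49.6% of all measured genes, and the median was -0.41, or 75.5% of the null signal. Without F13a1 and Plat, which reached the floor in null alone, 25 of 27 genes at or above both floors were negative (median -0.42), against 52.2% of the 10060 such genes. The median of all 13041 measured genes was 0.00. No gene of the set (0 of 29) was at least 2-fold apart in either direction, where 4.99% of all measured genes were at least 2-fold higher and 2.8% at least 2-fold lower. For F13a1 and Plat this rests on the floor in wild type, and 1 dimmer probe set of Tfpi was past 2-fold (log2 ratio -1.09). At 1.5-fold, F11, Pros1, Serpinf2, Proz and F5 were lower (5 of 29, against 11% of all measured genes) and Plaur was higher (1 of 29, against 14.8%). The shift of the whole set was about the size of that of the hybridization controls, and when both arrays were scaled to these controls (control scaling) its median was -0.03 while that of all measured genes was 0.38. The distance between these medians, -0.41, is the same under that scaling by construction. Directions below are those of the deposited signals. Under control scaling the signs of 11 of the 29 genes turned positive, namely Fga, Fgb, Fgg, F8, Klkb1, Kng1, Proc, F13a1, Thbd, Tfpi and Plat. For F13a1 and Plat this arose because the scaling was applied to ratios whose wild-type signal had been set to the floor. Without a floor their log2 ratios were -3.45 and -1.79, which that scaling would leave negative. The part of array scaling in the shift of the set was not tested.

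**Figure D1:**
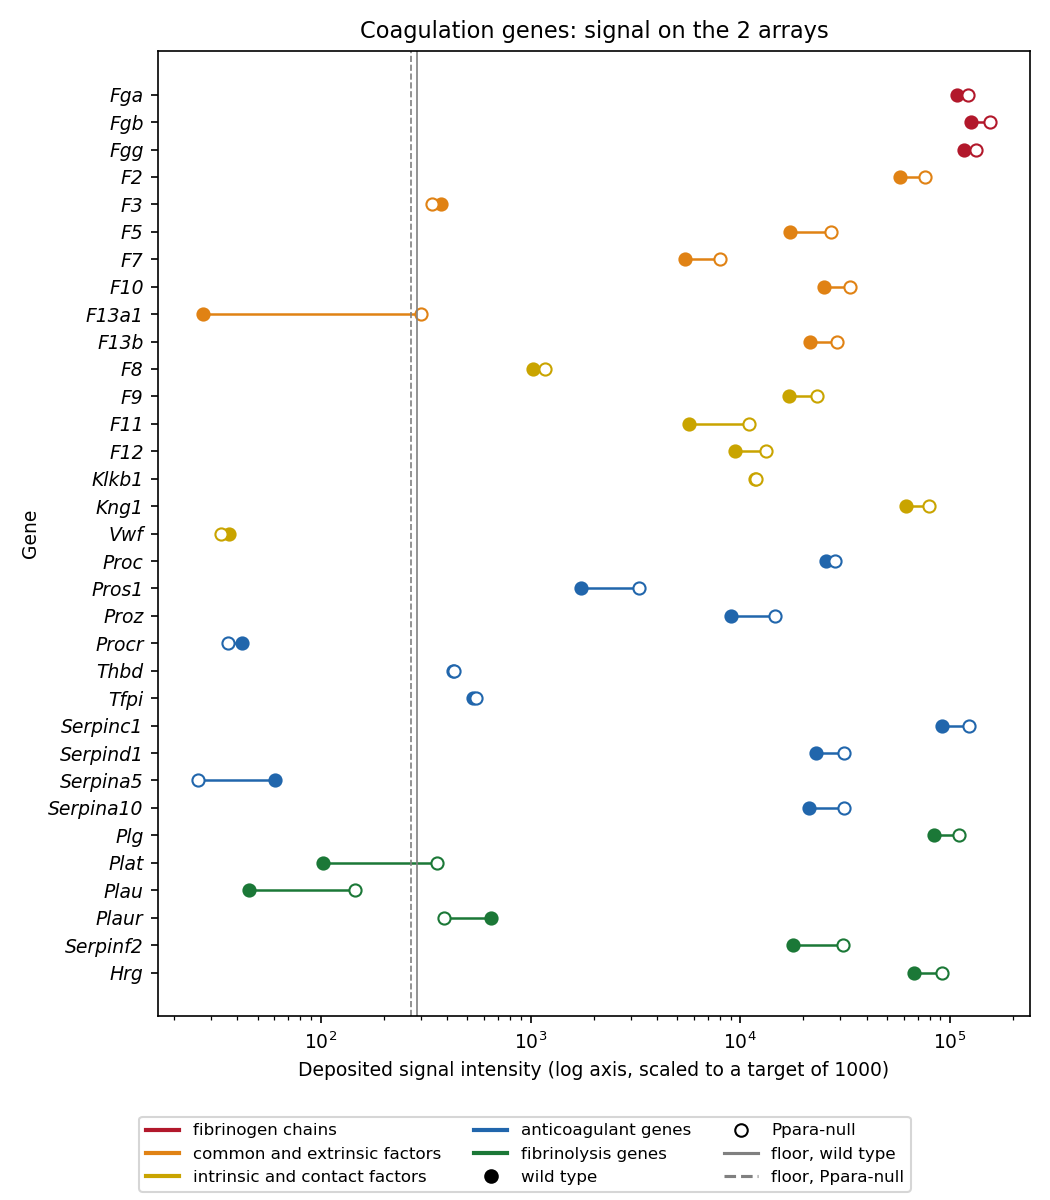
Deposited signal (log axis) of each of the 33 genes at its representative probe set, filled for wild type and open for Ppara-null, coloured by role; each point is 1 array of a pool of 3 mice and the grey lines are the floors of 287.8 and 269.4. The open points lie to the right of the filled ones for all 22 measured genes secreted by hepatocytes, while Vwf, Procr, Serpina5 and Plau lie below the floor on both arrays.

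The promoters of the fibrinogen genes are shown because these genes are neighbours on chromosome 3 and had the most alike ratios of any role group (SD 0.07). Each sequence is the stretch of 150 bases before the annotated start, 5′ to 3′ on the gene's strand, from the RefSeq promoter table of GRCm38.p6, which is of the C57BL/6J strain and not of 129SvEJ. Capitals mark matches to the palindrome TTGCGCAA of C/EBP factors with at most 1 mismatch, or to the palindrome of HNF1 (GTTAAT and ATTAAC with 1 base between) with at most 2 mismatches, searched on both strands in the 250 bases before the start. No match of a kind overlapped one of another kind.
Fgg: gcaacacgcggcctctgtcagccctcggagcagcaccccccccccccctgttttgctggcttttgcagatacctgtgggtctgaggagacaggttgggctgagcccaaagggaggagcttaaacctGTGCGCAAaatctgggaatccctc
Fga: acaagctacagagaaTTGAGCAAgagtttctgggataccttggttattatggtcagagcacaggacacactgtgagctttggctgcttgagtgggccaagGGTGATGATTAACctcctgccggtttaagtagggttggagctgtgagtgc
Fgb: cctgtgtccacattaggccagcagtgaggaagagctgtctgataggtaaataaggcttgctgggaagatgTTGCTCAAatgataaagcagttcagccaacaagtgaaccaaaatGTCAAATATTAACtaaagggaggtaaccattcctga
They lie at chr3:83007574-83007723 (plus strand), chr3:83026003-83026152 (plus strand) and chr3:83049864-83050013 (minus strand). In Fga the HNF1-like match spans bases 50 to 38 before the start and in Fgb bases 36 to 24. The C/EBP-like matches span bases 24 to 17 in Fgg, 135 to 128 in Fga and 80 to 73 in Fgb. Among all 32851 promoters of the table, 5.08% held a C/EBP-like and 1.24% an HNF1-like match. A match describes letters and says nothing of binding.

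A second group of promoters, of 100 bases each, is shown for F11 and Klkb1, neighbours on chromosome 8 with the lowest and the highest log2 ratio among hepatocyte-secreted genes, and for F7. Here capitals mark a match, on either strand and with at most 2 mismatches, to the direct repeat DR1 (AGGTCA and AGGTCA with 1 base between), which PPARα binds with its partner RXR and HNF4 also binds.
F11: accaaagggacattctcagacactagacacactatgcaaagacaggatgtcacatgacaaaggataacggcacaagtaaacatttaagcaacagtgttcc
Klkb1: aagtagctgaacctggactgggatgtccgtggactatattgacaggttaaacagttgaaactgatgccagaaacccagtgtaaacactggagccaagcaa
F7: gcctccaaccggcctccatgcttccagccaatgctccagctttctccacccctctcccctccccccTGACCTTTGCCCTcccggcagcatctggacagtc
They lie at chr8:45262032-45262131 (minus strand), chr8:45294836-45294935 (minus strand) and chr8:13025934-13026033 (plus strand). The match in F7 lies on the minus strand at bases 34 to 22 before the start, with 1 mismatch. It was the only DR1-like match among the 18 measured hepatocyte-secreted genes with a promoter in the table, and 3.24% of all promoters held one. For the other motifs 5 of the 18 had a C/EBP-like match (F9 and Hrg besides the fibrinogen genes) and 3 an HNF1-like match (F13b, Fga and Fgb).

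The fibrinogen chains, which assemble into the clot-forming protein and are acute phase products of the liver, had the smallest shift of the clotting factor groups. The Aα chain gene Fga gave 107368 (wild type) and 121603 (null), with a log2 ratio of -0.18. The Bβ chain gene Fgb gave 125740 and 155226 (log2 ratio -0.30), and the γ chain gene Fgg 116578 and 132599 (-0.19). The wild-type signals were thus 88.3%, 81.0% and 87.9% of null, and the SD of the 3 ratios, 0.07, was below the scatter of 0.17 between bright probe sets of 1 gene. Control scaling turned the median of the 3 from -0.19 to 0.19, and quantile normalization brought it to -0.007 with Fgg at 0.0065, so no direction held under every scaling.

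Among the factors of the common and extrinsic pathways, the hepatocyte-secreted ones were all lower in wild type. Prothrombin (F2), the precursor of thrombin, gave 57508 against 75690, a log2 ratio of -0.40. Factor V (F5), the cofactor that speeds prothrombin cleavage, gave 17256 against 26961 (1.56-fold lower, log2 ratio -0.64), and its further probe set had nearly the same ratio (13646 against 21381, -0.65). Factor VII (F7), the protease that starts clotting with tissue factor, gave 5454 against 8034 (-0.56).

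The signal of factor X (F10), which cleaves prothrombin, was 25104 against 33488, a log2 ratio of -0.42. Its dimmer probe sets were further apart, with 1636 against 3099 (-0.92) and 1338 against 2440 (-0.87), so the size of its difference depended on the probe set. F13b, the carrier subunit of the fibrin cross-linking factor XIII, gave 21417 against 28949 (-0.43). The catalytic subunit gene F13a1, known from macrophages and platelets, was below the floor in wild type (27.5) and just above it in null (301.4). Tissue factor (F3), which is made by cells around vessels, was close to the floor on both arrays, at 372.4 against 339.4, with a log2 ratio of 0.13. The null signals of F13a1 and F3 lay below that of the brightest Bacillus control on that array (422.4), which serves here as a stricter floor and turned F3 to -0.18, so no direction is given for it.

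The intrinsic and contact factors held both ends of the range for hepatocyte-secreted genes. Factor XI (F11), which activates factor IX, gave 5715 against 11029, a log2 ratio of -0.95 and the lowest of the 29 measured genes. Plasma prekallikrein (Klkb1), the precursor of the kinin-releasing protease of the contact system, gave 11789 against 11861 (-0.01). These genes are neighbours on chromosome 8, both have 1 probe set, and their ratios differed by 0.94. The scatter of 0.17 between bright probe sets of 1 gene is no measure for a pair at the ends of the range, and this difference was not tested. This difference was 0.90 in size after quantile normalization and 0.94 after loess. The other processing tried could not change it, because both genes lie far above the floors and scaling adds the same amount to every ratio.

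Factor IX (F9), the protease that forms the activator of factor X together with factor VIII, gave 17107 against 23192 (log2 ratio -0.44). Factor XII (F12), which starts the contact pathway, gave 9397 against 13188 (-0.49). Kininogen (Kng1), the source of bradykinin, gave 61370 against 79102 (-0.37) and 28379 against 44169 at its dimmer probe set (-0.64). These 3 genes lay near the middle of the set. Factor VIII (F8), a cofactor made mainly by endothelial cells of the liver, gave 1024 against 1168 (-0.19), and von Willebrand factor (Vwf), its carrier from endothelium and platelets, was below the floor on both arrays (36.5 and 33.6).

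**Figure D2:**
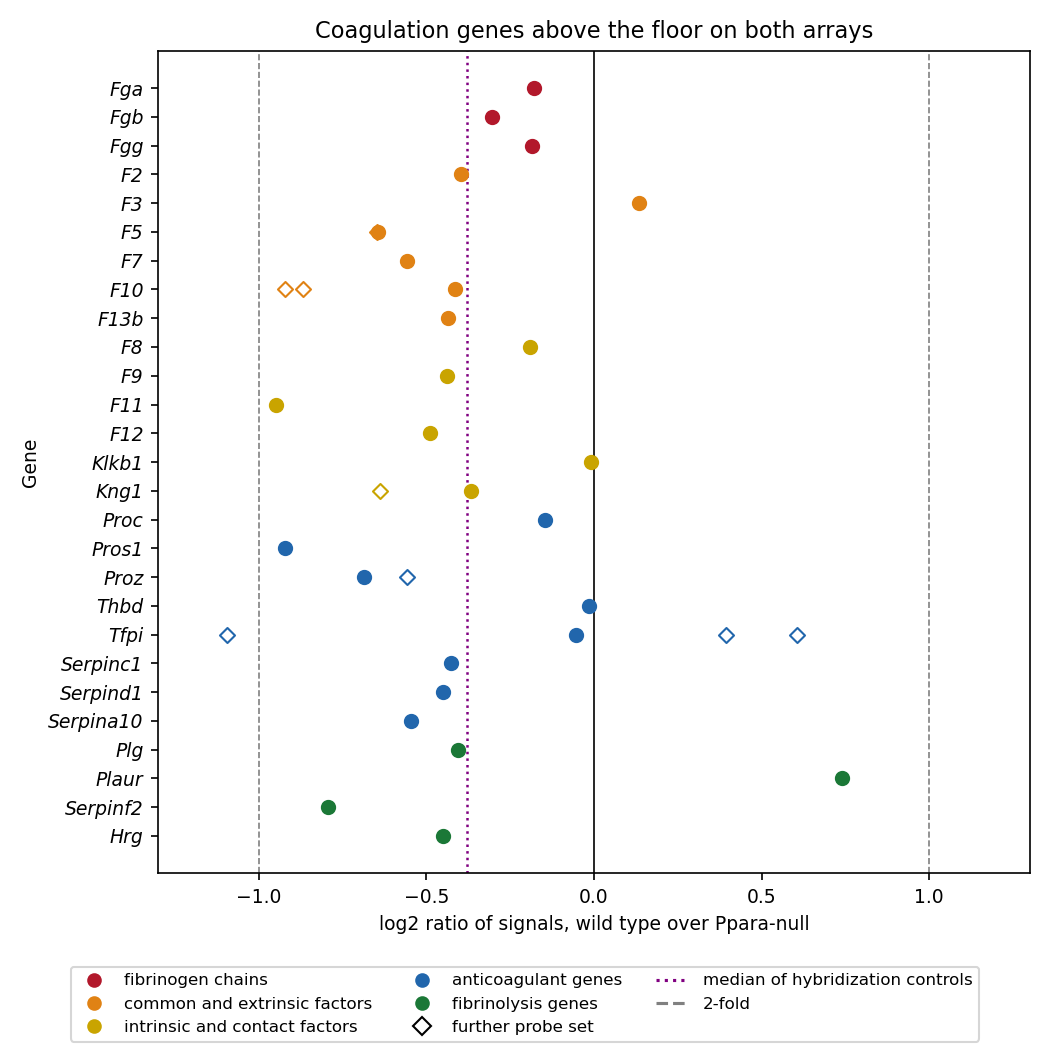
Log2 ratio of wild type over Ppara-null for the 27 genes above the floor on both arrays; circles are the representative probe sets, diamonds the further probe sets of the same gene that also reached both floors, dashed lines 2-fold and the dotted line the median of the 18 hybridization controls (-0.38). F11 (-0.95) and Pros1 (-0.92) lie farthest to the left of the circles and Plaur (0.74) farthest to the right, and the 4 probe sets of Tfpi lie on both sides of 0.

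The anticoagulant genes were also lower in wild type where the liver is their main source. Protein S (Pros1), the cofactor of activated protein C, gave 1738 against 3294 (1.90-fold lower, log2 ratio -0.92), next to F11 at the low end of the set. Protein C (Proc), the protease that it assists in the inactivation of factors V and VIII, gave 25601 against 28332 (-0.15). Protein Z (Proz), a cofactor in the inhibition of factor X, gave 9052 against 14576 (-0.69) and 3718 against 5476 (-0.56) at its dimmer probe set. Its partner, the protein Z-dependent inhibitor (Serpina10), gave 21366 against 31156 (-0.54).

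The serpins that block thrombin lay close together. Antithrombin (Serpinc1), the main inhibitor of thrombin and factor X, gave 91389 against 122903 (-0.43), and heparin cofactor II (Serpind1) gave 22930 against 31340 (-0.45). The protein C inhibitor gene Serpina5 was below the floor on both arrays, at 60.5 and 25.9.

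Anticoagulant genes of the vessel wall gave dim signals without a common direction. Thrombomodulin (Thbd), the endothelial receptor that turns thrombin into an activator of protein C, gave 427.4 against 432.1 (-0.02), and the endothelial protein C receptor (Procr) was below the floor (41.9 and 36.3). Tissue factor pathway inhibitor (Tfpi) gave 532.4 against 552.3 (-0.05), but its other probe sets had log2 ratios of 0.61, 0.39 and -1.09, so no direction can be given for it.

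In fibrinolysis, plasminogen (Plg), the precursor of the clot-dissolving protease plasmin, gave 83492 against 110548 (-0.40). Alpha-2-antiplasmin (Serpinf2), the fast inhibitor of plasmin, gave 17818 against 30900 (1.73-fold lower, -0.79). Histidine-rich glycoprotein (Hrg), a plasma protein that binds plasminogen and heparin, gave 66984 against 91528 (-0.45). The inhibitor of plasmin was therefore further from null than its target, by 0.39 on the log2 scale.

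Plasminogen activators were near or below the floor. Tissue plasminogen activator (Plat) was below it in wild type (102.9) and above it in null (356.2), and its other probe set was below it on both arrays. Urokinase (Plau) was below the floor at both of its probe sets. The urokinase receptor (Plaur), which focuses plasminogen activation on the cell surface, was the one gene of the set at least 1.5-fold higher in wild type, at 648.0 against 388.4 (log2 ratio 0.74). Its null signal lay below the brightest Bacillus control of that array (422.4), and with floors at these controls it was still higher in wild type, by 0.62 on the log2 scale. The null signal of Plat also lay below that control, and with those floors Plat was not measured.

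Clotting factors did not stand apart from the genes that restrain or dissolve clots. The 16 measured clotting factors had a median log2 ratio of -0.38 and the 13 measured inhibitors and fibrinolysis genes one of -0.43, a difference of 0.05, far below the spread across genes (SD 0.26 and 0.42). Among hepatocyte-secreted genes alone the medians were -0.42 (13 genes) and -0.45 (9 genes). The difference lay between 0.01 and 0.05 under every processing tried. The 8 anticoagulant genes had a median of -0.44, the 5 fibrinolysis genes one of -0.41, and the 7 vitamin K-dependent genes (F2, F7, F9, F10, Proc, Pros1 and Proz) one of -0.44.

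The split by cell of origin was wider than the split by role. All 22 measured genes secreted by hepatocytes gave the lower signal in wild type (16 of 22 after control scaling and 21 of 22 after quantile normalization or loess). Their median was -0.44, with an SD across genes of 0.24 and a range from -0.95 (F11) to -0.01 (Klkb1). The 7 measured genes of the vessel wall or blood cells had a median of -0.05, which was 0.33 after control scaling, and ranged from -0.31 (Plat) to 0.74 (Plaur), and 2 of these 7 were measured in null alone. The latter genes were dim, with signals between 27.5 and 1168, where probe sets scatter more, so the distance between these classes has no replicate check and was not tested. In bulk liver RNA, fewer cells of a type and less RNA per cell cannot be told apart.

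Bright genes as a whole did not show a shift of that size. Of 1831 measured genes with a mean signal of at least 5000, 57.7% had a negative log2 ratio and the median was -0.06. The 21 hepatocyte-secreted coagulation genes above that signal had a median of -0.43 and an SD of 0.22, set against 0.17 between probe sets of 1 gene. Of all 1831 genes 6.88% were at least 1.5-fold lower, as were 4 of the 21 (F11, Serpinf2, Proz and F5). Relative to the hepatocyte markers (median -0.22) the 22 hepatocyte-secreted genes were lower by 0.21 on the log2 scale (a difference of -0.36 after quantile normalization), and 18 of the 22 kept a negative ratio after scaling to those markers. The markers themselves ranged from -0.45 (Tat) to -0.12 (Apoa2), so this distance depends on which markers are taken.

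**Figure D3:**
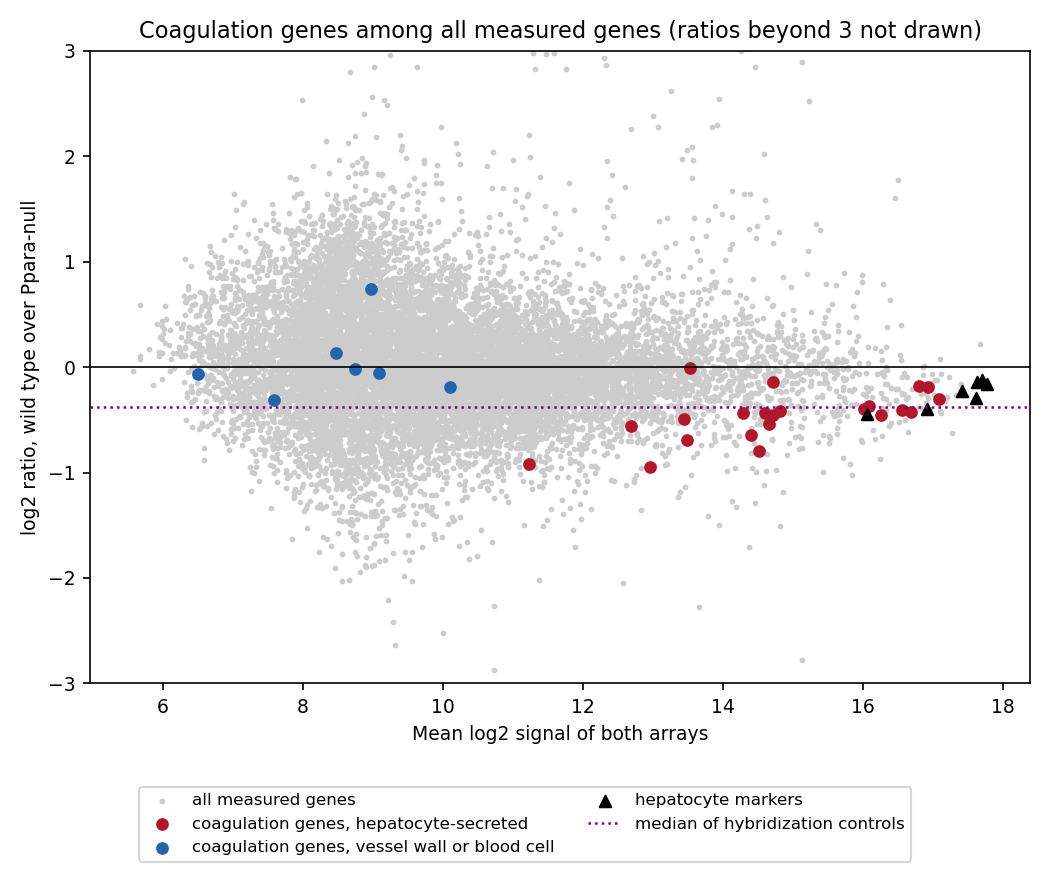
Log2 ratio of wild type over Ppara-null against mean log2 signal for the 13041 measured genes (grey), with the 22 hepatocyte-secreted coagulation genes (red), the 7 of the vessel wall or blood cells (blue) and 7 hepatocyte markers (triangles); each point is 1 gene and the dotted line is the median of the hybridization controls. The red points all lie below 0 (median -0.44) at mid to high signals, while the blue points lie at low signals.

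Distances between neighbouring genes were small in the fibrinogen cluster and varied elsewhere. Fgg, Fga and Fgb follow each other on chromosome 3, with ratios 0.01 and 0.12 apart in size. F7, F10 and Proz follow each other on chromosome 8, with ratios of -0.56, -0.42 and -0.69, which are 0.14 and 0.27 apart in size. F11 and Klkb1, on the same chromosome, were the pair farthest apart.

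Genes that modify and export clotting factors were mostly lower in wild type too. Of 9 measured genes of the vitamin K cycle and of factor processing, 7 had a negative ratio and 0 were at least 2-fold apart, with a median of -0.34 (0.04 after scaling to the hybridization controls). The gamma-carboxylase Ggcx, which carries out the vitamin K-dependent step, gave 1895 against 3135 (-0.73), although its other probe set gave 1412 against 1383 (0.03). The tyrosine sulfotransferase Tpst1 gave 1692 against 2806 (-0.73). The quinone reductase Nqo1, which can reduce vitamin K, gave 1227 against 669.0 (0.87). The epoxide reductase Vkorc1, the target of warfarin, gave 40038 against 41185 (-0.04), and is named here after its value was seen.

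Other protease inhibitors of plasma had a median of -0.32 over 8 measured genes, 6 of them negative, which became 0.06 after control scaling and -0.16 after quantile normalization. Tfpi2, an inhibitor of plasmin and of the tissue factor pathway, stood apart from them at 18476 against 9170, 2.01-fold higher in wild type at its 1 probe set, with a log2 ratio of 1.01 that was 0.9984, just under 2-fold, after quantile normalization. Murinoglobulin 1 (Mug1) gave 77858 against 111852 (-0.52). The alpha-2-macroglobulin gene A2m gave 398.4 against 135.6, and was below the floor in null. Its wild-type signal lay above the brightest Bacillus control of its own array (316.5) but below that of the null array (422.4). No fold or direction is therefore given. Other plasma factors had a median of -0.32 (0.06 after that scaling) with 5 of 8 negative and 0 at least 2-fold apart. Among the positive ones, Fgl2 (236.5 against 270.3) was below the floor in wild type, and its ratio of 0.09 came from the unequal floors. The activator of hepatocyte growth factor, Hgfac, gave 5215 against 10093 (-0.95), the inter-alpha-trypsin inhibitor chain Itih1 13922 against 21909 (-0.65), and the complement regulator C4bp 28836 against 42594 (-0.56).

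Cell surface receptors for clotting and fibrinolysis enzymes had no common direction, with 4 of 8 measured genes negative and a median of -0.11 (0.27 after scaling to the hybridization controls). S100a10, the partner of annexin A2 in a plasminogen receptor, was 2.69-fold higher in wild type (9102 against 3378). Its next probe set gave 3786 against 1908 (0.99), and the dimmest gave 374.8 against 475.8 (-0.34). Annexin A5 (Anxa5), which covers the membranes that clotting factors bind, gave 2613 against 1344 (0.96), and the thrombin receptor F2r gave 5888 against 9503 (-0.69) and 2094 against 4593 (-1.13).

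Liver transcription factors that control many of these genes were lower in wild type by similar amounts, with 10 of 11 negative, 0 at least 2-fold apart and a median of -0.32 (0.06 after scaling to the hybridization controls). Stat3, which carries the interleukin-6 signal to the fibrinogen genes, gave 2750 against 4404 (-0.68), with a further probe set of the opposite sign that was below the floor in null (538.8 against 126.1). Prox1 gave 529.4 against 811.0 (-0.62) and Nr0b2, an orphan receptor that represses transcription, 4626 against 6906 (-0.58). The dimmer probe sets of Prox1 were further apart and below the floor in wild type, with 196.5 against 929.9 and 143.6 against 421.1. The size of its difference thus depended on the probe set. Acute phase and complement genes, which encode other plasma proteins of the liver, had a median of -0.43 over 26 measured genes, with 22 negative, 0 at least 2-fold higher and 2 at least 2-fold lower. These were Orm3 (424.5 against 963.9) and complement C2 (4268 against 9269). Control scaling brought them to log2 ratios of -0.80 and -0.74, under 2-fold, and the floor at the 75th percentile brought Orm3 to -0.25. Saa1 followed with 3377 against 6560 (-0.96). The acute phase list and the coagulation set had nearly equal medians as deposited. Control scaling brought the median of the list to -0.05, and it cannot change the distance between the medians.

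Markers of the other cells of the liver had negative medians in every list as deposited. All lists but that of T and B cells held ratios of both signs. Of 7 measured markers of Kupffer cells or macrophages, which are a source of F13a1, 5 were negative with a median of -0.62, and Cd5l was 2.12-fold lower (1910 against 4052), or -0.71 on the log2 scale and under 2-fold after control scaling. Their summed signal was 16846 in wild type and 23432 in null. The 9 endothelial markers had a median of -0.09 and summed signals of 14408 and 16248, and Pecam1, below the floor in null, was at least 2.36-fold higher (636.9 against 228.0), with a log2 ratio of 1.24 that was 0.59 with floors at the Bacillus controls. The 6 measured platelet markers had a median of -0.13 with summed signals of 3289 and 2954, and Treml1 was below the floor on both arrays. Stellate cell markers had a median of -0.07 (7 genes, summed signals 25582 and 30655). The endothelial, platelet and stellate cell medians changed with the processing: control scaling turned endothelium to 0.29, platelets to 0.25 and stellate cells to 0.31, while the floor at the 75th percentile gave -0.39, 0.05 and -0.32. Of the bile duct markers 3 reached the floor, each on 1 array alone, so their ratios depend on the floor, and their summed signals were 766.7 and 1060. Of the red cell markers 3 reached it, 1 of them on both arrays (Alas2, -0.75), with summed signals of 4716 and 7759. Of the T and B cell markers 1 of 5 reached it (Ms4a1, in null alone). The median of the Kupffer cell markers was -0.25 after control scaling. The part of these markers in the values of F13a1, F8, Thbd, Tfpi and Plaur was not tested.

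Scaling to the hybridization controls brought the clotting factors to 0.00 and the inhibitors and fibrinolysis genes to -0.05. The order of the lists did not change, since that scaling adds the same amount to every ratio.

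**Figure D4:**
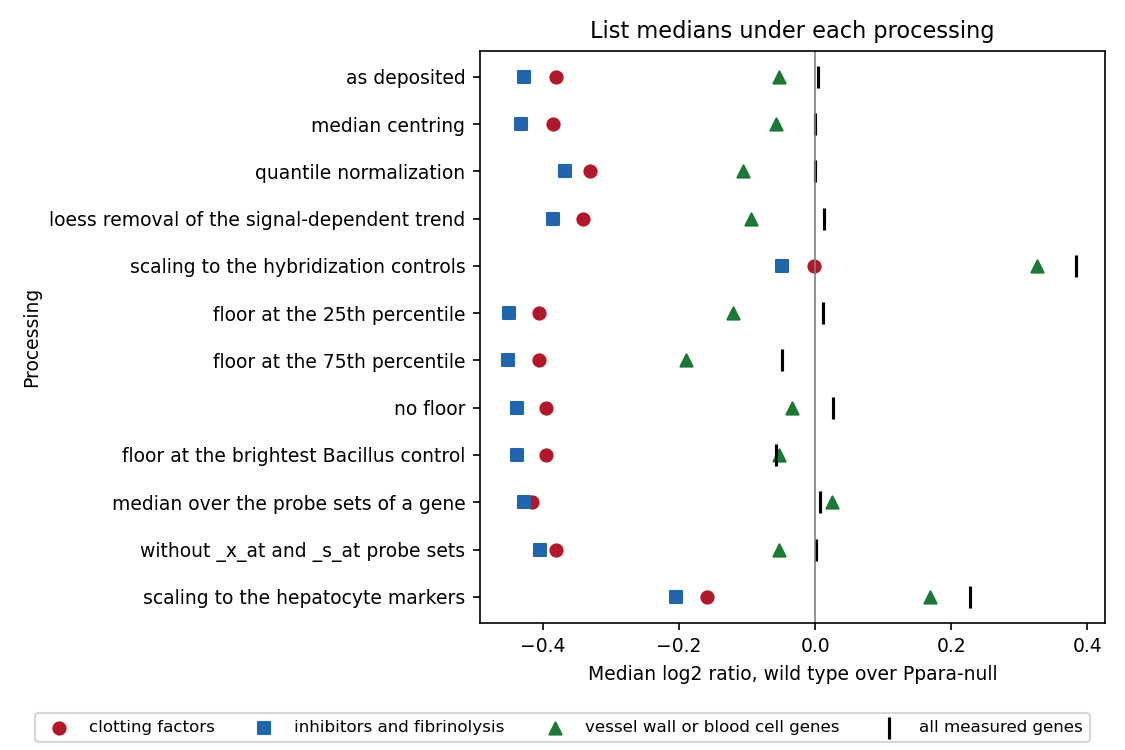
Median log2 ratio of wild type over Ppara-null for clotting factors, for inhibitors and fibrinolysis genes, for vessel wall or blood cell genes and for all measured genes (vertical ticks), under each processing on the vertical axis. Clotting factors and their inhibitors stay within 0.05 of each other and lie to the left of all measured genes in every processing shown, also where scaling to the controls brings them to 0.00 and -0.05.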

How the data were processed

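Liver RNA pooled from 3 mice per genotype was hybridised to 1 array of 45101 probe sets each. Per the labels, the authors derived signal intensity values with the Affymetrix statistical algorithm and scaled each array to a target of 1000; the sources used here give neither the software version nor detection calls. Probe sets were named from the platform annotation of 2016; those with several symbols (932) or none (9160) and 64 controls stayed out of gene values. No genome build is given for the array values.

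The deposited intensities were used without further scaling. Computed here, with Python 3.11.15, numpy 2.4.6, pandas 2.3.3 and statsmodels 0.14.6, were floors at each array's median, log2 ratios, counts at 2-fold and list medians; the code was tested on simulated data. Comparisons are descriptive, since each group is 1 array. The 34 genes, the lists and the alternatives were chosen with earlier results of these data known; Ppara, every gene of the set, the 3 largest ratios of each pathway list, and pathway and marker genes at least 2-fold apart were named by rule. Alternatives were median centring, quantile and loess normalization, control scaling, other floors, other summaries of probe sets, thresholds of 1.5-fold and 3-fold, and, added after seeing the data, scaling to the hepatocyte markers.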

Additional observations from a re-analysis of the deposited data

How the results depend on the processing

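Median centring, quantile normalization, loess, leaving out probe sets with the suffixes _x_at and _s_at and the median over probe sets moved no median of a coagulation list by more than the scatter allowed for it (the SD of 0.42 between probe sets of 1 gene, divided by the root of the number of genes), although with the median over probe sets F10 moved from -0.42 to -0.92, and the vessel wall or blood cell genes changed sign, to 0.02. The scatter allowed is wide for bright genes, whose SD between probe sets was 0.17. Within it, quantile normalization brought the fibrinogen median from -0.19 to -0.007. Quantile normalization chose another probe set for Tfpi, at 0.54, and the median over probe sets turned the cell surface receptors to 0.32. The difference between clotting factors and inhibitors with fibrinolysis stayed between 0.01 and 0.05.

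After scaling to the hybridization controls the medians were -0.026 (all 29 genes), -0.0021 (clotting factors), -0.048 (inhibitors and fibrinolysis), -0.060 (anticoagulant), -0.058 (hepatocyte-secreted), -0.060 (vitamin K-dependent), -0.026 (fibrinolysis) and 0.33 (vessel wall or blood cell). Plaur was then at least 2-fold higher (1 of the 29 genes of the set). Of all 13041 measured genes 1759 were higher and 109 lower (94.2% of these calls higher, against 64.1% as deposited). After scaling to the hepatocyte markers, an alternative chosen after seeing the data, the medians in the same order were -0.18, -0.16, -0.21, -0.22 (anticoagulant), -0.21 (hepatocyte-secreted), -0.22 (vitamin K-dependent), -0.18 and 0.17, with 1152 genes higher and 170 lower (87.1% higher). Both scalings add 1 constant to every ratio.

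With the floor at the 25th percentile 2 of 30 measured genes of the set, F13a1 and Plat, were at least 2-fold lower, and the fibrinolysis median was -0.61. Of all 16723 genes measured with that floor, 2336 were higher and 1650 lower. With no floor 3 of 33 were lower (F13a1, Plat and Plau) and 1 of 33 higher (Serpina5). The anticoagulant median was then -0.29 and the fibrinolysis median -0.62. Of all 18193 genes without a floor, 3096 were higher and 2177 lower. F13a1, Plat, Plau and Serpina5 lie below the median floor on at least 1 array. The floor at the 75th percentile left 157 higher and 98 lower, and the floor at the brightest Bacillus controls 297 higher and 303 lower (49.5% higher). At 1.5-fold 1 gene of the set was higher and 5 lower (1925 and 1438 genes in all), and at 3-fold 0 (132 and 58 in all). No paired analysis was possible because each group is 1 array. Signals near the floor limit what can be said of F3, F13a1, Thbd, Tfpi, Plat and Plaur.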

Other observations

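Probe sets that carry several symbols were kept out of all gene values, and 3 of them belong to plasma protease inhibitors. That shared by Serpina1d and Serpina1a gave 64047 in wild type and 85299 in null (log2 ratio -0.41). The one shared by Serpina1e, Serpina1c and Serpina1b gave 10085 against 17062 (-0.76), and the one shared by Mug2, Mug1 and Mug-ps1 gave 64278 against 104666 (-0.70). Urokinase (Plau) had opposite signs at its 2 probe sets below the floor, with 148.1 against 35.2 at 1 of them and 45.5 against 145.1 at the other.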
